A study of Prunus persica with 21 samples.

Results

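The step from 24 h to 48 h after PpPep1 was described from 6 of the 21 libraries of the series, 3 of leaves taken 48 h after the peptide and 3 of leaves taken 24 h after it. PpPep1 is a synthetic form of an elicitor peptide that peach (Prunus persica) makes itself. Juvenile Big Top plants, raised in vitro and potted, were sprayed on both leaf surfaces with 100 nM PpPep1, and the leaf blades were frozen without their central vein. Both groups share this genotype, dose and organ and differ in time. The other groups of the series are leaves taken 1, 24 and 48 h after 1000 nM PpPep2, leaves taken 1 h after PpPep1, and the t0 leaves, which the design calls untreated and a sample label calls mock. Libraries of mock leaves of 24 or 48 h were not analysed here, so in these libraries a change that leaves undergo without the peptide cannot be told apart from one after it.

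The members were found by a matched reading of the count table. The 3 PpPep1 24 h libraries are the columns headed for PpPep1 24 h. The 3 columns headed for PpPep2 24 h were read as PpPep1 48 h, since their totals were 0.975, 0.972 and 0.971 of the read pairs that the study's mapping statistics give for the PpPep1 48 h libraries, and 26, 32 and 34 genes held 25% of their counts, the same numbers as listed there. Set against the library of their own heading, the same totals were 0.635, 0.652 and 0.758 of the read pairs, and 0 of the 3 had the listed number of genes. Each of the 3 columns matched 1 library of the 21 on both measures. The columns headed for PpPep1 48 h matched the PpPep2 1 h libraries instead, and those headed for PpPep2 1 h matched PpPep2 24 h.

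The total count was 34873044 to 36972911 in the PpPep1 48 h libraries and 42474988 to 47307560 in the PpPep1 24 h libraries. At least 1 count was held by 20339 to 20391 genes at 48 h and by 20502 to 20786 genes at 24 h. By the library names of the mapping statistics, the libraries of the later time are of a different series from those of the earlier one and were run on other flowcells, with 0 flowcells in common. Time after PpPep1 and library series therefore cannot be told apart in any value below. The PpPep2 libraries changed series in the same way between 24 h and 48 h. UBQ10 (PRUPE_4G204900), a reference gene that the study assessed for RT-qPCR, had 222, 238 and 223 CPM at 48 h, against 233, 219 and 196 CPM at 24 h (log2FC 0.08, SE 0.10, edgeR adjusted p = 0.606). CPM stands for counts scaled by TMM to a common library size. UBQ10 was added after its values were seen.

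Plant elicitor peptides are cut from precursor proteins when cells are damaged and are perceived at the plasma membrane by PEPR receptor kinases with a leucine-rich repeat ectodomain. Perception is known to open calcium channels and to start MAP kinase cascades, an oxidative burst and the transcription of defence genes, as recognition of microbial patterns does. Whether the changes described below belong to defence or to growth was not tested.

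Assays for RT-qPCR existed for 19 of the genes, of which 3 were called as changed between 24 h and 48 h by the limits given below. The primers that the study designed for these 3 are shown here. All are written 5′ to 3′, with no base set apart.
XTH2 forward: cacaaaacagtctcaactcagca
XTH2 reverse: ggcagtcaaggccatcagag
bZIP34 forward: catcaggagcagcagcatca
bZIP34 reverse: tgcttttgaccctcttggga
Peroxidase 44 forward: tccataactggcggtttgct
Peroxidase 44 reverse: tgcctctaggcgtttcttgg

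At 48 h after PpPep1, the named genes that stood higher than at 24 h included XTH2, KRP1, GATL3, CYP707A2 and the transcriptional regulators TEM1, NAC002 and MYB73. Those that stood lower included the transporter PDR2, the transcription factors PAT1 and ATMYC1, CXXS1, GRXC9 and Peroxidase 44. The calls of CYP707A2, MYB73 and Peroxidase 44 ended with some single libraries left out, as given below. Of the 18586 genes tested, 667 were DEG, which is 3.59% of them. A gene counted as DEG at a log2FC above 1 or below -1 with p under 0.01 in the quasi-likelihood test of edgeR, adjusted by Benjamini-Hochberg. The DEG were split evenly, with 333 higher at 48 h (1.79% of the genes tested) and 334 lower (1.80%). Their median log2FC was 1.39 among the higher and -1.45 among the lower, against 0.02 over all genes tested. A log2FC above 2 was reached by 56 of the higher DEG, and one below -2 by 70 of the lower. In all 667 DEG the 3 libraries of one time lay above the 3 of the other, which was the case for 41.1% of all genes tested. The DEG were chosen on these same libraries, so this describes them and lends the calls no further weight. In 76 DEG the mean of the higher group was under 1 CPM. DESeq2 called 717 genes, 345 higher and 372 lower, and 636 were called by both tools.

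**Figure D1:**
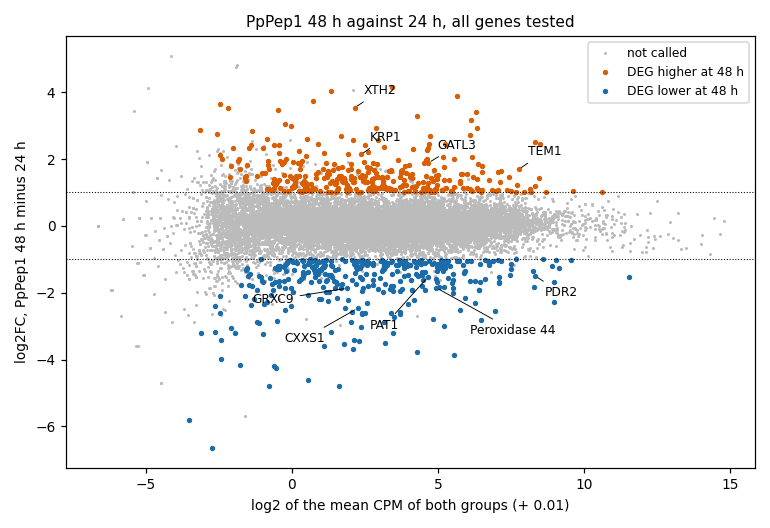
Each point is 1 of the 18586 genes tested, with the log2 of its mean CPM over both groups (plus 0.01) on the x axis and its log2FC, PpPep1 48 h minus 24 h, on the y axis. DEG higher at 48 h (333, orange) and lower at 48 h (334, blue) spread over the whole range of levels, and dotted lines mark a log2FC of 1 and -1.

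Names were at hand for 583 of the genes tested, from the count table and from the study's text and tables, and 28 of the DEG are among them, 16 higher and 12 lower at 48 h. Many names are those of the closest Arabidopsis gene. The roles given below are therefore roles known in Arabidopsis unless another plant is named, and none was measured here. The genes are ordered by these roles after the calls, and no list stands behind that order.

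**Figure D2:**
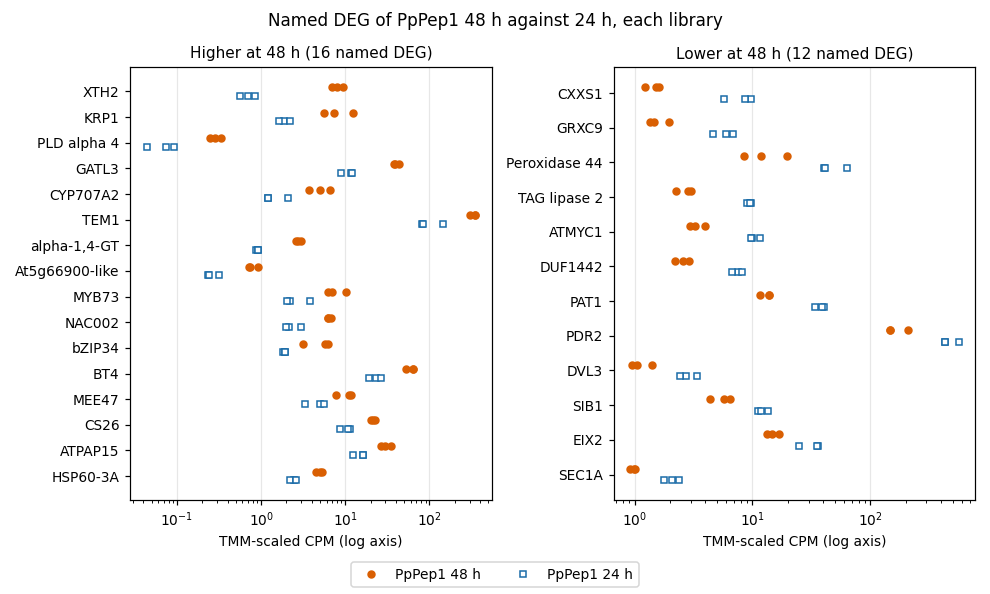
TMM-scaled CPM (x axis, log scale) of the 28 named DEG in each of the 3 PpPep1 48 h libraries (filled circles) and the 3 PpPep1 24 h libraries (open squares), with genes ordered by log2FC. In every gene all circles lie on one side of all squares, as in XTH2 with 7.05 to 9.48 CPM at 48 h and 0.563 to 0.843 CPM at 24 h. GT stands for glycosyltransferase, SIB1 for sigma factor binding protein 1 and TAG for triacylglycerol.

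Of the genes that rose, 3 are known from cell wall polymers or are named as glycosyltransferases. Xyloglucan endotransglucosylase/hydrolase 2 (XTH2, PRUPE_3G171500), an enzyme that cuts and rejoins the xyloglucan chains of the wall, had 9.48, 7.05 and 7.94 CPM at 48 h, against 0.843, 0.563 and 0.700 CPM at 24 h. The lowest library at 48 h thus stood far above the highest at 24 h. XTH2 had the highest log2FC of the named genes, 3.53 (SE 0.57, edgeR adjusted p = 0.000278), which is 11.6-fold, and 3.40 to 3.68 with each of the 6 libraries left out. Over the whole course its level was 4.0 ± 2.98 CPM at t0, 11.5 ± 3.11 at 1 h, 0.702 ± 0.140 at 24 h and 8.16 ± 1.23 at 48 h (SD, n = 3 each). The 24 h libraries were thus the low point of the course, and the 48 h mean exceeded that of t0, whose libraries spread widely. GATL3 (PRUPE_1G305600), a probable galacturonosyltransferase-like protein of a family tied to pectin and xylan synthesis, had 44, 37.5 and 39.4 CPM at 48 h, against 11.8, 12.1 and 8.90 CPM at 24 h. Its log2FC was 1.89 (SE 0.19, edgeR adjusted p = 2.61e-06), and its levels at t0 and 1 h were 20.1 ± 4.48 and 46.5 ± 7.57 CPM (SD, n = 3). An alpha 1,4-glycosyltransferase family gene (PRUPE_2G284900) had 3.00, 2.73 and 2.59 CPM at 48 h, against 0.866, 0.931 and 0.918 CPM at 24 h, a log2FC of 1.61 (SE 0.18, edgeR adjusted p = 3.34e-06). RSEM shares out reads that fit several members of a gene family, so the level of a single XTH or glycosyltransferase gene depends on that split.

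Among transcriptional regulators that rose, TEM1 (PRUPE_1G305900), an AP2/ERF and B3 domain repressor of flowering and of gibberellin synthesis, had 350, 305 and 345 CPM at 48 h, against 81.6, 143 and 84.0 CPM at 24 h. Replicate 2 was the highest of the 24 h libraries and the lowest of the 48 h libraries, and still the groups were far apart. The log2FC was 1.69 (SE 0.17, edgeR adjusted p = 1.44e-06). NAC002 (PRUPE_6G238600), a NAC domain factor, had 6.31, 6.72 and 6.26 CPM at 48 h, against 2.18, 2.99 and 1.97 CPM at 24 h, a log2FC of 1.44 (SE 0.25, edgeR adjusted p = 0.000283). NAC002 differed in its course from TEM1, since its means at t0 and 1 h, 1.91 and 1.18 CPM, were also below that of 48 h, while those of TEM1 were 186 and 420 CPM. BT4 (PRUPE_6G222100), a BTB and TAZ domain scaffold protein, had 52.8, 63.0 and 63.3 CPM at 48 h, against 23.2, 19.1 and 26.6 CPM at 24 h, a log2FC of 1.38 (SE 0.26, edgeR adjusted p = 0.000939). At t0 BT4 stood at 47.4 ± 9.72 CPM (SD, n = 3), so its 24 h libraries were the low ones.

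MYB73 (PRUPE_8G134900), an R2R3 MYB factor, had 10.2, 6.27 and 7.06 CPM at 48 h, against 3.84, 2.23 and 2.06 CPM at 24 h (log2FC 1.53, SE 0.32, edgeR adjusted p = 0.00168). Basic leucine zipper 34 (bZIP34, PRUPE_4G172000) had 5.76, 3.15 and 6.2 CPM at 48 h, against 1.80, 1.94 and 1.90 CPM at 24 h (log2FC 1.42, SE 0.32, edgeR adjusted p = 0.00318). Replicate 2 of the 48 h libraries was close to the 24 h level. The mean of bZIP34 at 48 h, 5.03 CPM, was below that at t0, 8.09 CPM. Both calls depended on single libraries. The MYB73 call ended without PpPep1 48 h replicate 1 (log2FC 1.3, edgeR adjusted p = 0.0106) and without PpPep1 24 h replicate 3 (1.36, adjusted p = 0.0115). The bZIP34 call ended without 48 h replicate 1 (log2FC 1.31) or 3 (1.24) and without 24 h replicate 1 (1.39), 2 (1.44) or 3 (1.42), with edgeR adjusted p of 0.0116 to 0.0184, and held without 48 h replicate 2.

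CYP707A2 (PRUPE_5G013100), an abscisic acid 8'-hydroxylase that starts the breakdown of this stress hormone, had 6.51, 5.0 and 3.69 CPM at 48 h, against 2.08, 1.22 and 1.20 CPM at 24 h. The log2FC was 1.75 (SE 0.37, edgeR adjusted p = 0.00200). Its mean was 2.26 CPM at t0 and 15.7 CPM at 1 h, so the 48 h level lay between the 1 h peak and the low level of 24 h. The call ended without PpPep1 48 h replicate 1 (log2FC 1.53, edgeR adjusted p = 0.0122), 24 h replicate 2 (1.63, adjusted p = 0.0110) or 24 h replicate 3 (1.60, adjusted p = 0.0134). KRP1 (PRUPE_4G033300), named as a calcium-binding protein, had 12.3, 5.59 and 7.39 CPM at 48 h, against 1.87, 1.64 and 2.21 CPM at 24 h. Its log2FC of 2.14 (SE 0.31, edgeR adjusted p = 8.74e-05) was the second highest of the named DEG. The highest library of KRP1 was 48 h replicate 1, and its log2FC was 1.76 without that library.

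The other named genes that rose belong to metabolism, protein folding and resistance. CS26 (PRUPE_7G018300), a plastid enzyme of sulfur assimilation, had 21.3, 20.1 and 22.7 CPM at 48 h, against 11.4, 8.72 and 10.6 CPM at 24 h (log2FC 1.06, SE 0.18, edgeR adjusted p = 0.000332). ATPAP15 (PRUPE_8G201400), a purple acid phosphatase, had 35.5, 26.9 and 29.6 CPM at 48 h, against 16.2, 16.4 and 12.2 CPM at 24 h (log2FC 1.04, SE 0.12, edgeR adjusted p = 4.97e-06). Both stood at 48 h above t0 as well, where the means were 8.42 and 13.1 CPM in the same order. HSP60-3A (PRUPE_3G049300), a mitochondrial chaperonin, had a log2FC of 1.03 (SE 0.19, edgeR adjusted p = 0.000340). MEE47 (PRUPE_2G190500), a name from a screen for arrested embryos, had one of 1.13 (SE 0.23, edgeR adjusted p = 0.00127). These 4 lay close to the threshold of 1. CS26 fell short of it without PpPep1 24 h replicate 2 (0.95), MEE47 without 24 h replicate 3 (0.93), ATPAP15 without 24 h replicate 3 (0.91) or 48 h replicate 1 (0.92), and HSP60-3A without 24 h replicate 2 (0.97) or 48 h replicate 1 (0.97).

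A pair of the genes that rose rest on few reads. Phospholipase D alpha 4 (PRUPE_3G051200), which releases phosphatidic acid from membrane lipids, had 12, 10 and 9 counts at 48 h, against 4, 3 and 2 counts at 24 h. Its log2FC was 2.00 (SE 0.45, edgeR adjusted p = 0.00238), and the call ended without 48 h replicate 1 (log2FC 1.88, adjusted p = 0.0122) or 24 h replicate 3 (1.74, adjusted p = 0.0165). The probable disease resistance protein At5g66900 (PRUPE_7G138900), of the nucleotide-binding leucine-rich repeat kind, had 33, 26 and 26 counts at 48 h, against 10, 13 and 11 counts at 24 h. Its log2FC of 1.57 (SE 0.41, edgeR adjusted p = 0.00671) was no longer called with any of the 6 libraries left out. Without 48 h replicates 1, 2 and 3 in turn it was 1.44, 1.62 and 1.64, and without 24 h replicates 1, 2 and 3 it was 1.49, 1.72 and 1.5, with edgeR adjusted p of 0.0127 to 0.0288.

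Among the genes that fell, PAT1 (PRUPE_4G233000), a GRAS family transcription factor of phytochrome A signalling, had the smallest adjusted p of the named genes. It had 11.5, 13.9 and 13.7 CPM at 48 h, against 40.3, 38.9 and 33.7 CPM at 24 h, a log2FC of -1.53 (SE 0.10, edgeR adjusted p = 4.07e-09). Its means at t0, 1 h and 24 h, 33.1, 42.3 and 37.6 CPM, all lay well above that of 48 h. ATMYC1 (PRUPE_2G170100), a basic helix-loop-helix factor of epidermal cell patterning, had the same kind of course, with means of 13.5, 10.8, 10.4 and 3.39 CPM from t0 to 48 h. It had 3.28, 3.93 and 2.95 CPM at 48 h, against 9.91, 11.7 and 9.75 CPM at 24 h, a log2FC of -1.62 (SE 0.15, edgeR adjusted p = 6.58e-07). DVL3 (PRUPE_3G240100), a small DEVIL polypeptide that acts on organ shape, had 1.42, 0.955 and 1.05 CPM at 48 h, against 2.74, 3.38 and 2.43 CPM at 24 h. Its log2FC was -1.32 (SE 0.18, edgeR adjusted p = 2.89e-05), and its t0 level was 3.3 ± 0.119 CPM (SD, n = 3).

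Other genes that fell are a transporter and genes of defence, while the At5g66900-like resistance gene, also of defence, rose. PDR2 (PRUPE_6G122100), named as a pleiotropic drug resistance protein, a family of ABC transporters that export defence compounds, had 148, 148 and 208 CPM at 48 h, against 431, 564 and 433 CPM at 24 h. The log2FC was -1.5 (SE 0.13, edgeR adjusted p = 3.20e-07). Its course was 563 ± 47.5 CPM at t0, 1383 ± 98.7 at 1 h, 476 ± 76.1 at 24 h and 168 ± 34.6 at 48 h (SD, n = 3 each), so that the last time point was the lowest. EIX2 (PRUPE_2G155900), a receptor-like protein that in tomato recognises a fungal xylanase, had 14.6, 13.2 and 16.8 CPM at 48 h, against 24.8, 35.9 and 35.3 CPM at 24 h (log2FC -1.10, SE 0.14, edgeR adjusted p = 1.22e-05). Sigma factor binding protein 1 (PRUPE_2G041200), a VQ motif protein that binds WRKY33, had 5.73, 4.33 and 6.50 CPM at 48 h, against 13.4, 11.2 and 11.8 CPM at 24 h (log2FC -1.14, SE 0.26, edgeR adjusted p = 0.00351). EIX2 and this gene peaked at 1 h, with means of 60.5 and 48.5 CPM in that order. The call of sigma factor binding protein 1 ended without PpPep1 48 h replicate 1 (log2FC -1.17, edgeR adjusted p = 0.0119), 48 h replicate 2 (-0.99, adjusted p = 0.0208) or 24 h replicate 1 (-1.06, adjusted p = 0.0151). PRUPE_4G157300, for which the study's network table gives both SEC1A and berberine bridge enzyme-like 1, had 0.918, 1.01 and 0.992 CPM at 48 h, against 2.37, 1.76 and 2.08 CPM at 24 h (log2FC -1.09, SE 0.17, edgeR adjusted p = 0.000108), and fell short of the threshold without 24 h replicate 1 (-0.98).

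A peroxidase, a glutaredoxin and a thioredoxin-like protein also fell. Peroxidase 44 (PRUPE_7G016500), a secreted class III peroxidase, had 19.7, 8.54 and 11.8 CPM at 48 h, against 40.3, 63.4 and 41.1 CPM at 24 h. The log2FC was -1.85 (SE 0.39, edgeR adjusted p = 0.00231). The call ended without 48 h replicate 2 (log2FC -1.61, edgeR adjusted p = 0.0136), 48 h replicate 3 (-1.77, adjusted p = 0.0134) or 24 h replicate 2 (-1.61, adjusted p = 0.0104), and in a model of the 6 libraries alone (-1.87, adjusted p = 0.0199). Its level had been 38.1 ± 10.4 CPM at t0 and 385 ± 29.0 CPM at 1 h (SD, n = 3). GRXC9 (PRUPE_4G053500), a glutaredoxin that binds TGA factors of salicylic acid signalling, had 1.97, 1.35 and 1.46 CPM at 48 h, against 6.79, 6.03 and 4.66 CPM at 24 h. Its log2FC was -1.87 (SE 0.28, edgeR adjusted p = 8.20e-05). GRXC9 stood at 2.81 ± 0.523 CPM at t0, 6.03 ± 0.388 at 1 h and 5.82 ± 1.08 at 24 h (SD, n = 3 each). It was thus above t0 at both 1 h and 24 h, and its 48 h libraries were below t0. CXXS1 (PRUPE_4G029100), a thioredoxin-like protein, had 1.61, 1.24 and 1.52 CPM at 48 h, against 5.78, 9.78 and 8.64 CPM at 24 h. It had the lowest log2FC of the named genes, -2.47 (SE 0.40, edgeR adjusted p = 0.000275).

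A pair of other named genes fell. Triacylglycerol lipase 2 (PRUPE_3G304100), named as a lipase of triacylglycerols, had 3.00, 2.25 and 2.87 CPM at 48 h, against 9.02, 9.78 and 9.49 CPM at 24 h (log2FC -1.80, SE 0.25, edgeR adjusted p = 3.97e-05). PRUPE_8G007800, which the study's network table calls an ankyrin repeat/KH domain protein (DUF1442), had 2.22, 2.89 and 2.56 CPM at 48 h, against 7.54, 8.13 and 6.73 CPM at 24 h. Its log2FC was -1.54 (SE 0.24, edgeR adjusted p = 8.37e-05). Its mean was 3.32 CPM at t0 and 1.65 CPM at 1 h, so the 24 h libraries were the high point and the 48 h level was near that of t0. All 12 named genes that fell kept a negative log2FC with each of the 6 libraries left out, and all 16 that rose a positive one.

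**Figure D3:**
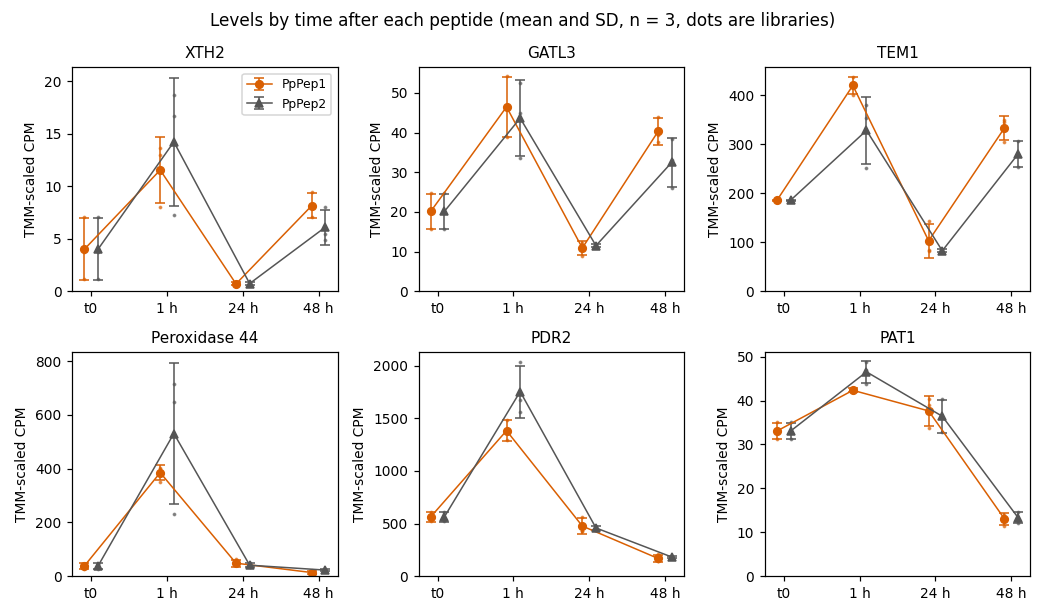
TMM-scaled CPM (y axis, from 0) of 6 named DEG at t0 and at 1, 24 and 48 h (x axis) after PpPep1 (orange circles) and PpPep2 (grey triangles), with the mean and SD of 3 libraries and the libraries as dots. XTH2, GATL3 and TEM1 were lowest at 24 h (0.702, 10.9 and 103 CPM after PpPep1), while Peroxidase 44, PDR2 and PAT1 were lowest at 48 h (13.4, 168 and 13.1 CPM).

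Of the 19 genes with RT-qPCR assays, which the study chose on these libraries, 2 were DEG higher at 48 h (XTH2 and bZIP34) and 1 was lower (Peroxidase 44), a share of 15.8% beside 3.59% of all genes tested. The median log2FC of the 19 was -0.11, against 0.02 over all genes. Without PpPep1 48 h replicate 3 or without 24 h replicate 2, 1 of the 19 was called, XTH2 with log2FC of 3.40 to 3.68 over all the libraries left out. The remaining 16 genes, mostly those of early signalling, were not DEG. Of these, the receptor gene PpPEPR1a, given below, passed the limit on p (edgeR adjusted p = 0.00713) and not the one on log2FC (-0.67). MPK3 (PRUPE_6G091700), a MAP kinase of immune signalling, had 30.0, 30.9 and 31.5 CPM at 48 h, against 34.9, 32.5 and 31.9 CPM at 24 h (log2FC -0.11, SE 0.16, edgeR adjusted p = 0.663). WRKY33 (PRUPE_6G286000), a transcription factor of defence against fungi, had 4.56, 3.15 and 7.28 CPM at 48 h, against 4.45, 4.12 and 5.01 CPM at 24 h (log2FC 0.14, SE 0.36, edgeR adjusted p = 0.805). The groups of WRKY33 overlapped, and both were far under its 1 h mean of 199 CPM. The calcium-dependent kinases CDPK8 and CDPK11 had log2FC of -0.23 and 0.36, the co-receptor regulator BIR1 -0.22, the transcriptional activator PTI5 -0.12, ERF1a 0.44, TIFY9 -0.52, glutamate receptor 2.7 -0.56, the RING-H2 finger protein ATL22 0.43, the protein phosphatase 2C gene -0.27 and the G-type lectin receptor kinase 0.71.

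For a few of these genes the spread between replicates was wide. PR4 (PRUPE_6G141100), a chitin-binding pathogenesis-related protein, had 20.5, 15.6 and 37.6 CPM at 48 h, against 7.05, 7.74 and 14.6 CPM at 24 h. Replicate 3 was the highest in both groups, the groups did not overlap, and the log2FC of 1.32 (SE 0.48, edgeR adjusted p = 0.0521) did not pass the test. Basic 7S globulin 2 (PRUPE_1G152100), of a family of proteins with an inhibitor-like fold in the wall space, had 4.0, 1.15 and 3.97 CPM at 48 h, against 8.59, 5.32 and 1.79 CPM at 24 h (log2FC -0.77, SE 0.65, edgeR adjusted p = 0.410). U-box domain-containing protein 21 (PRUPE_3G164200), a ubiquitin ligase, had 66, 1 and 44 counts at 48 h and 54, 13 and 24 counts at 24 h (log2FC 0.55, SE 0.84, edgeR adjusted p = 0.675). Differences of the size seen in bZIP34 could not be resolved in such genes with 3 libraries a group.

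Of the paralogous receptors of the peptides and the flagellin receptor PpFLS2, 0 were DEG in edgeR and in DESeq2, and 1 had an unadjusted p under 0.05. PpPEPR1a (PRUPE_3G167800) had 5.42, 6.55 and 6.86 CPM at 48 h, against 11.5, 11 and 7.59 CPM at 24 h. All 48 h libraries were below all 24 h libraries, and its log2FC of -0.67 (SE 0.17, edgeR adjusted p = 0.00713) passed the limit on p and not the one on log2FC. PpPEPR1b (PRUPE_3G167900) had 1.89, 1.91 and 2.45 CPM at 48 h, against 2.25, 1.67 and 1.73 CPM at 24 h (log2FC 0.15, SE 0.21, edgeR adjusted p = 0.640). PpFLS2 (PRUPE_3G304400) had 25, 19 and 25 counts at 48 h, against 22, 19 and 25 counts at 24 h (log2FC 0.33, SE 0.28, edgeR adjusted p = 0.422). Reads that fit both PEPR1 paralogs were shared out by RSEM. The phloem gene PP2A1 (PRUPE_8G030100), the marker at hand for a tissue other than the leaf blade's mesophyll, had 10.6, 9.69 and 11 CPM at 48 h, against 14, 14.8 and 17.3 CPM at 24 h. PP2A1, like UBQ10, was added with its values already known. The log2FC was -0.56 (SE 0.09, edgeR adjusted p = 0.000106), and its part in the other differences was not tested. In bulk leaf blades fewer cells of a type and less RNA per cell cannot be told apart, and no name at hand marked mesophyll or epidermis.

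Of the 192 peach genes of the cluster that the study selected from its larger immune signalling network, 191 were tested and 16 were DEG, 8 higher and 8 lower at 48 h. This is 8.38% of those tested, beside 3.59% of all genes, and the study selected the cluster for its expression in these libraries, so its share is not independent of them. Their median log2FC was 0.08, against 0.02 over all genes tested. The 8 that rose are KRP1, GATL3, CYP707A2, TEM1, the alpha 1,4-glycosyltransferase gene, the At5g66900-like gene, MYB73 and NAC002. The 8 that fell are CXXS1, GRXC9, the DUF1442 gene, PAT1, PDR2, sigma factor binding protein 1, EIX2 and SEC1A. With single libraries left out, 13 to 18 genes of the cluster were called, and DESeq2 called 19.

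The gene families listed in the study's table of process genes were at hand only in part. By the paper's account, these lists hold the genes that contributed to bins enriched in its time comparisons of these libraries. They need not be whole families, and their shares are not independent of these libraries. The 10 lists together hold 176 genes, of which 174 were tested and 3 were DEG, 1.72% beside 3.59% of all genes. By the limit on adjusted p alone the share was 14.9%, beside 16.9% of all genes. The 3 DEG are phospholipase D alpha 4, triacylglycerol lipase 2 and PAT1. In the list of lipid degradation, 1 of 64 genes rose and 1 fell, with a median log2FC of 0.11. Among GRAS factors 1 of 14 fell, with a median of 0.19. edgeR called 0 genes in the lists of WRKY factors (25 tested), homeobox factors (25), auxin response factors (9), B3 factors (9) and retrotransposons (23), with median log2FC of 0.14, 0.15, 0.27, -0.08 and 0.14 in the same order. At an unadjusted p under 0.05, 7 WRKY, 11 homeobox, 3 auxin response factor, 2 B3 and 6 retrotransposon genes differed, beside 39.2% of all genes tested and 35.6% of the genes of the 10 lists, and DESeq2 called 0 in these 5 lists. The lists headed as glycerophosphodiester phosphodiesterases (33 genes) and chromatin remodelling factors (36 genes) also held 0 DEG in edgeR. In that order, 8 and 11 genes had an unadjusted p under 0.05, and DESeq2 called 1 in each. These 2 lists share 31 genes, so their headings do not tell what the shared genes encode. The paper counts rust resistance kinases among the genes of its lipid degradation and chromatin remodelling bins. Among the 241 tested genes that the count table itself names, 5 rose (BT4, MEE47, CS26, ATPAP15 and HSP60-3A) and 3 fell (ATMYC1, PAT1 and DVL3), 3.32% of them, with a median log2FC of 0.01.

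Most of the DEG have no name in the sources used here. The 15 highest log2FC among DEG with a mean of at least 1 CPM in the higher group were 2.70 to 4.17 and the 15 lowest were -4.78 to -3.16. XTH2 is the only one of the 30 with a name. PRUPE_2G110400 had the highest, 4.17 (SE 0.49, edgeR adjusted p = 1.85e-05), with 19.7, 25.9 and 15.4 CPM at 48 h, against 0.983, 1.20 and 1.20 CPM at 24 h. In 11 of the 15 that rose, XTH2 included, the 3 libraries of 24 h all lay below the 3 of t0, as in 13.1% of all genes tested. Choosing genes by their rise from 24 h favours low 24 h libraries, so this is a description. PRUPE_1G334000 had the lowest, -4.78 (SE 0.49, edgeR adjusted p = 3.98e-06), with 0.25, 0.225 and 0.165 CPM at 48 h, against 6.14, 5.98 and 5.71 CPM at 24 h. That is 27.5-fold lower at 48 h, and its t0 mean was 9.69 CPM. In absolute terms the 5 largest gains in mean level among DEG were 325 to 1069 CPM and the 5 largest losses 471 to 2864 CPM. The largest gain was that of PRUPE_4G019200, with 2069, 2140 and 2087 CPM at 48 h, against 1043, 1306 and 743 CPM at 24 h (log2FC 1.03, SE 0.21, edgeR adjusted p = 0.00121). Without 24 h replicate 3 its log2FC was 0.83 and it was not called.

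The levels at t0 were not used to choose the DEG, but those of 24 h and 48 h were, so their places relative to t0 are a description. Relative to t0, the 333 DEG higher at 48 h had a median level of 0.94 on the log2 scale at 48 h and -0.49 at 24 h, and the medians of the single libraries were 0.89 to 1.00 at 48 h and -0.57 to -0.45 at 24 h. The 334 DEG lower at 48 h had a median level of -1.19 at 48 h and 0.27 at 24 h. Over all genes tested these medians were 0.03 at 48 h and 0.01 at 24 h. In 257 of the 333 higher DEG all 48 h libraries lay above all t0 libraries, beside 27.1% of all genes tested, and in 153 all 24 h libraries lay below all t0 libraries, beside 13.1%. In 288 of the 334 lower DEG all 48 h libraries lay below all t0 libraries, beside 21.5% of all genes tested, and in 93 all 24 h libraries lay above them, beside 16.0%. A departure from t0 at 48 h with 24 h overlapping t0 was the commonest pattern of the DEG, in 132 of the higher ones, above t0 (15.9% of all genes), and in 202 of the lower ones, below it (13.6% of all genes). Of the higher DEG, 98 lay below t0 at 24 h and above it at 48 h (1.45% of all genes), and 53 lay below t0 at 24 h and overlapped it at 48 h (4.74% of all genes). The t0 libraries belong to the library series of the 24 h libraries.

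**Figure D4:**
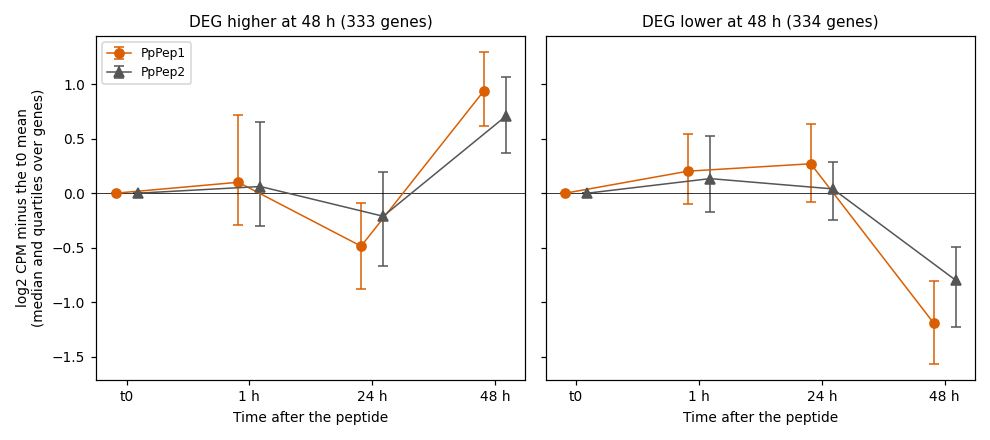
Level of the 333 DEG higher at 48 h (left) and the 334 lower at 48 h (right), as log2 CPM minus the t0 mean of each gene (y axis), at t0 and 1, 24 and 48 h after PpPep1 (orange circles) and PpPep2 (grey triangles). Points are medians over genes and bars the quartiles, with PpPep1 medians of -0.49 at 24 h and 0.94 at 48 h in the left panel and 0.27 and -1.19 in the right one.

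The same step after PpPep2, in 6 other libraries and at another dose, gave 424 DEG, 2.28% of the genes tested. Of these, 195 were higher at 48 h (1.05%) and 229 lower (1.23%). Both steps were fitted in 1 model of all 21 libraries, so the PpPep1 calls also rest on the spread in the PpPep2 libraries. A model of the 6 PpPep1 libraries of 24 h and 48 h alone called 590 genes for PpPep1, 290 higher and 300 lower. Of the 667 PpPep1 DEG, 240 were also called after PpPep2 in the same direction, 125 higher and 115 lower. This is 36.0% of the PpPep1 DEG and 56.6% of the PpPep2 DEG. The log2FC after PpPep2 had the same sign in 653 of the 667 (97.9%), beside 75.6% of all genes tested. Its median was 0.90 for the genes higher and -0.91 for those lower after PpPep1. Over all 18586 genes the log2FC of the 2 steps had a Pearson's r of 0.66, given as a description, since genes are not replicates of a condition and all share the change of library series.

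Of the 28 named DEG, 28 had the same sign after PpPep2 and 14 were called there. TEM1 had 280, 307 and 253 CPM at PpPep2 48 h, against 82.6, 85.7 and 79.6 CPM at PpPep2 24 h (log2FC 1.76, edgeR adjusted p = 1.83e-06). XTH2 had 7.99, 5.50 and 4.84 CPM at PpPep2 48 h, against 0.736, 0.855 and 0.614 CPM at PpPep2 24 h (log2FC 3.03, edgeR adjusted p = 0.00106). PAT1 had a log2FC of -1.45 after PpPep2, ATMYC1 -1.60, PDR2 -1.33 and GRXC9 -1.43, all called. The unnamed PRUPE_1G334000 had -4.78 after either peptide. CXXS1 and BT4 were not called after PpPep2, with log2FC of -0.72 and 0.41. The difference between the steps was -1.75 for CXXS1 (SE 0.55, edgeR adjusted p = 0.229) and 0.97 for BT4 (SE 0.36, edgeR adjusted p = 0.329), and neither passed the test.

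A test of the difference between the steps, PpPep1 minus PpPep2, called 0 of the 18586 genes in edgeR (0%). At an unadjusted p under 0.05 there were 1911 genes, the smallest adjusted p was 0.0236, and DESeq2 called 45 genes, 12 with a positive and 33 with a negative difference. Of these 45, 0 have a name and 17 are among the PpPep1 DEG. A single gene was called in opposite directions after the peptides. PRUPE_1G018900, singled out after its values were seen, had 7.92, 10.4 and 10.004 CPM at PpPep1 48 h, against 14.9, 25.2 and 19.8 CPM at PpPep1 24 h, and 18.8, 15.9 and 16.8 CPM at PpPep2 48 h, against 8.01, 6.99 and 9.26 CPM at PpPep2 24 h.

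**Figure D5:**
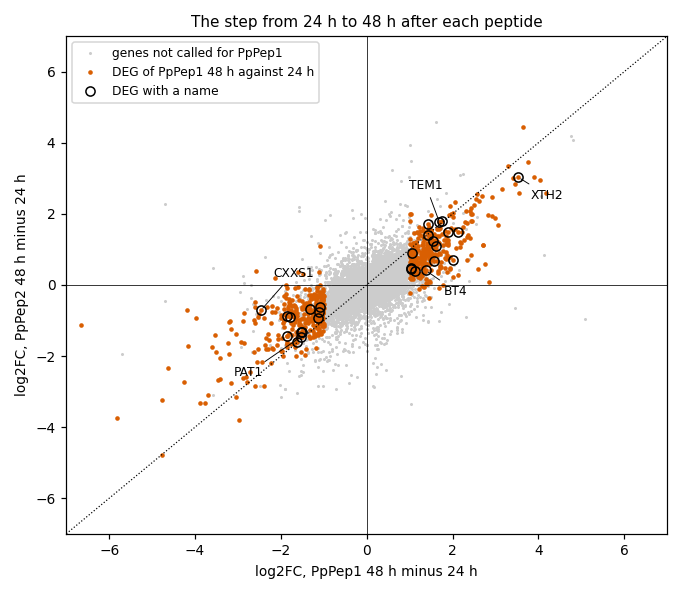
log2FC of each gene tested from 24 h to 48 h after PpPep1 (x axis) and after PpPep2 (y axis), with PpPep1 DEG in orange, named DEG circled and the line of equal values dotted. Of the 667 DEG, 653 lie in the quadrants of equal sign, and XTH2 is at 3.53 and 3.03.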

How the data were processed

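The authors aligned stranded read pairs of poly-A RNA to the NCBIv2 genome with STAR 2.5.3a and deposited RSEM 1.3.0 counts per gene as whole numbers, without normalization. How these became whole and whether molecular identifiers removed duplicates is not given in the sources used here. The table holds 27107 genes, and 0 identifiers matched the RefSeq list (its coordinates were not used). Columns were assigned by total counts (0.95 to 0.99 of the study's read pairs) and by the genes holding 25% of counts. The authors' own comparisons (DESeq2 1.20.0) were not used.

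With R 4.3.3, counts were filtered (filterByExpr), TMM scaled and fitted in edgeR 4.0.16 by robust quasi-likelihood in 1 model of 7 groups and 21 libraries, with 14 residual degrees of freedom. The SE is the log2FC divided by the square root of F. DESeq2 1.42.0 was an alternative. For log2 CPM the prior count was 2. The fits were tested on simulated data. Averaged over genes above a minimum count, replicates of the 6 libraries differed by 14.3 to 40.8 times the variance of counting error. This mean is weighted toward abundant genes, where the replicates set the precision. It does not hold for genes with few reads.

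Named were the RT-qPCR and receptor genes, called members of the lists (up to 10 each way per list), the 15 DEG at either extreme with groups apart and at least 1 CPM, and the 5 with the largest gain or loss. Of unnamed genes, 2 each way are printed. Comparison, lists and rules were chosen with earlier results of these data known.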

Additional observations from a re-analysis of the deposited data

Results flagged for a closer look

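PRUPE_1G018900 moved in opposite directions after the peptides, with each group of 3 libraries apart from the other. Its log2FC from 24 h to 48 h was -1.08 after PpPep1 (SE 0.26, edgeR adjusted p = 0.00471) and 1.08 after PpPep2 (SE 0.25, edgeR adjusted p = 0.00572). The difference of the steps was -2.16 (SE 0.36), with an adjusted p of 0.0491 in edgeR, which does not pass 0.01, and of 2.03e-06 in DESeq2, which does. The PpPep1 call ended without 48 h replicate 1 (log2FC -0.97), 2 (-1.16) or 3 (-1.12) and without 24 h replicate 2 (-0.88) or 3 (-1.09). The gene has no name in the sources used here.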

How the results depend on the processing

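The called named genes kept their directions under DESeq2, RLE scaling, either filter on low counts, the replicate block, a model of the 6 libraries alone and each library left out, except that phospholipase D alpha 4 had no value in the 6 libraries alone and under the stricter filter, and the At5g66900-like gene none under that filter. DESeq2 gave phospholipase D alpha 4 a log2FC of 2.03 and no adjusted p. Of those not called, CDPK11, WRKY33, PTI5, U-box protein 21 and the protein phosphatase 2C gene changed sign with a library left out. With single libraries left out, PpPep1 gave 594 to 636 DEG (275 to 314 higher, 291 to 349 lower), the RT-qPCR list 1 to 2, the network cluster 13 to 18, the genes with a name of their own among the counts 7 to 9, the families 3 to 5 (5 without PpPep1 24 h replicate 1), the receptors 0 and the difference of the steps 0. Without a threshold on log2FC, 3148 genes were called for PpPep1 (1698 higher, 1450 lower), 2326 for PpPep2, 55 in the network cluster, 46 of those with a name among the counts, 26 in the families and 1 receptor. DESeq2 called 45 genes for the difference of the steps. Replicate numbers were not treated as pairs in the main model. Same-numbered libraries of 48 h and 24 h deviated with r of 0.13, 0.32 and 0.05 over 5000 genes, and 1 of the 3 48 h libraries correlated best with its own number. The deviations were taken from the mean of each group of 3 libraries, so these r cannot show whether the libraries are paired. With the replicate block there were 658 DEG, 324 higher and 334 lower, of which 639 were called without it. It changed no call of the 52 genes given by name or identifier in the text. Among the genes with a name in the count table it called 9 in place of 8.

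With columns taken as headed (the libraries matched to PpPep2 1 h in place of PpPep1 48 h), 1608 genes were called, 1334 of them higher, with 18 RT-qPCR genes, 2 receptors, 111 genes of the network cluster and 74 family genes. Other libraries are compared there by construction. Of the 52 genes, 24 then changed sign with a call in either reading. Of the others, 7 gained and 5 lost a call and 16 kept theirs or the lack of it, among which PR4, PpPEPR1b and UBQ10, called in neither reading, changed sign. In the 24 the log2FC became 6.82 for Basic 7S globulin 2, 5.18 for Glutamate receptor 2.7, 3.94 for PTI5, 3.46 for Peroxidase 44, 3.06 for BIR1, 2.60 for TIFY9, 2.00 for the protein phosphatase 2C gene, 1.55 for MPK3, 2.05 for CDPK8, 1.3 for PpPEPR1a, 0.56 for triacylglycerol lipase 2, 0.31 for PAT1, -1.40 for NAC002, 0.64 for CXXS1, 1.88 for PDR2, 2.06 for sigma factor binding protein 1, 1.27 for EIX2, 0.95 for SEC1A, -0.47 for CS26, -0.27 for ATPAP15, 0.54 for ATMYC1, 0.59 for DVL3, 1.55 for PRUPE_1G334000 and -0.32 for PRUPE_4G019200.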
